A study of Homo sapiens with 6 samples.

Results

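The MYC, MAX and MXD network was examined through 10 genes chosen by name, MYC, MAX, MXD1, MXD3, MXD4, MXI1, MNT, MLX, MLXIP and MGA, out of 16570 genes measured by RNA-seq in brain-seeking breast cancer cells. All 10 had a mean FPKM (fragments scaled by transcript length and by mapped depth) of at least 1 and entered the test. These genes and the lists below were chosen with earlier results of these data known. Their shares beside those of all genes are therefore descriptions, not independent of the data. The cells were MDA-MB-231BR (BR), a brain metastatic variant of the triple-negative breast cancer line MDA-MB-231. BR-shCON cells (n = 3 samples) carried the empty lentiviral vector plvx-shRNA-puro, and BR-shSPANXB1 cells (n = 3) carried the same vector with a short hairpin RNA against SPANXB1, a cancer-testis antigen. The 21-base hairpin target, shown because it defines the intended knockdown, was the following.
shSPANXB1: gaggaggaggaattcatagaa
Both lines were infected with lentivirus, selected with puromycin and grown in the same serum-containing medium. The control held no hairpin, 1 hairpin and 1 line per arm were sequenced, and the labels' extraction text mentions the parental and BR lines but no knockdown. Titles and cell types therefore set the groups. The series text calls the samples independent but does not say what a replicate number shares, and p-values therefore measure the spread between these samples.

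MYC is a transcription factor that binds DNA as a heterodimer with MAX at E-boxes, whose core sequence is CACGTG, and it activates genes of ribosome production, nucleotide synthesis and growth. MXD1, MXI1, MXD3, MXD4 and MNT compete for MAX and recruit SIN3 corepressors, and MGA joins MAX to a variant Polycomb complex. MLX forms a parallel branch with the glucose-sensing factor MLXIP (MondoA), whose targets include TXNIP, and also pairs with some MXD proteins and MNT.

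The targeted gene was lower in the cells with the hairpin. SPANXB1 measured 444.9, 562.9 and 515.5 FPKM in BR-shCON replicates 1 to 3 and 232.2, 259.7 and 247.9 FPKM in BR-shSPANXB1 replicates 1 to 3, with no overlap between groups (log2 fold change -1.11 ± 0.05 SE, edgeR adjusted p = 1.8e-14). Samples held 16294462 to 16666167 estimated counts. Of 10 basal and mesenchymal breast cancer markers, 9 had a mean FPKM of at least 1 (summed FPKM 4758 to 4786 in the control and 4834 to 5024 in the knockdown), as did 4 of 10 luminal markers, FOXA1, EPCAM, XBP1 and KRT19 (195 to 205 and 192 to 211). The same level was reached by 0 of 7 leukocyte markers (0.460 to 0.980 and 0.940 to 1.24), 2 of 6 endothelial markers, PECAM1 and KDR (3.06 to 3.62 and 2.88 to 3.33), and 1 of 7 neural markers, MBP (32.3 to 33.8 and 31.5 to 32.2). CD3E, MS4A1, OLIG2, AQP4 and TFF1 were at 0 or absent from the table. The part of these differences in the results on the network was not tested.

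Of the 10 members, MYC alone passed the test between groups, and it was lower in BR-shSPANXB1 cells. That is 1 of 10 members at an adjusted p under 0.05 by edgeR's quasi-likelihood test, against 13.8% of the 11439 genes tested. By direction, 0 members were higher, against 6.82% of all genes, and 1 was lower, against 6.98%. The estimates lay above 0 for 5 members and below 0 for 5, with a median log2 fold change of -0.0028, and the median of all tested genes was 0.0002. No member reached the criteria used by the study (adjusted p under 0.05, absolute log2 fold change over 0.59 and control FPKM over 1), which 0.621% of all tested genes met. FPKM ranges of the groups did not overlap for 2 members, MYC and MLXIP, against 28.6% of all tested genes. In a fit that paired samples by replicate number, 2 of 10 members passed, MYC and MLXIP, against 25.7% of all genes.

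The levels of the network in BR-shCON cells ran from MYC down to MNT. On the FPKM scale, which divides by transcript length, MYC averaged 102 ± 5.62 (SD, n = 3), MAX 87.9 ± 2.15, MLX 31.2 ± 1.19 and MLXIP 11.8 ± 0.0737. MGA averaged 10.5 ± 0.407, MXI1 9.96 ± 0.573, MXD4 8.55 ± 1.01, MXD1 7.30 ± 0.180, MXD3 6.52 ± 0.376 and MNT 5.50 ± 0.307. MYC stood at the 92.3rd and MAX at the 91.4th percentile of mean FPKM among tested genes, and MNT, the lowest member, at the 23.0th. Neighbours in this order whose BR-shCON samples overlapped were MGA and MXI1, MXI1 and MXD4, and MXD4 and MXD1. The other neighbours did not overlap in BR-shCON. In BR-shSPANXB1 cells MYC (87.6 ± 3.23) and MAX (84.4 ± 2.91) overlapped.

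**Figure D1:**
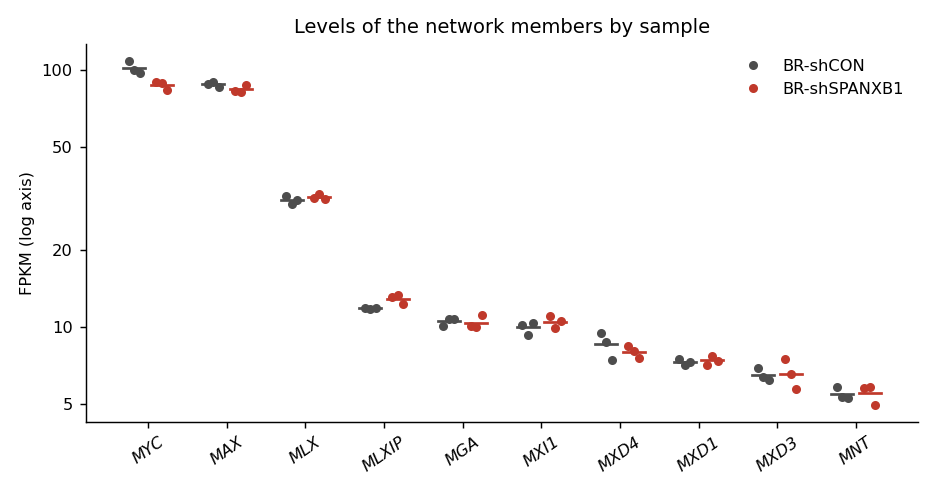
Levels of the 10 network genes in each sample, in FPKM on a log axis, with BR-shCON in grey, BR-shSPANXB1 in red and a bar at each group mean (n = 3 per group). MYC and MLXIP are the genes whose groups do not overlap, with BR-shSPANXB1 lower for MYC and higher for MLXIP.

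MYC, the activator that pairs with MAX, measured 108.2, 100.3 and 97.34 FPKM in BR-shCON replicates 1 to 3 and 89.87, 88.96 and 83.87 FPKM in BR-shSPANXB1 replicates 1 to 3. Every BR-shSPANXB1 sample lay below every BR-shCON sample. The gene fell by 15.0% in the fit (fold 0.850, log2 fold change -0.23 ± 0.04 SE, 95% interval -0.32 to -0.15, edgeR adjusted p = 0.00024). The ratio of same-numbered samples, BR-shSPANXB1 over BR-shCON, was 0.831, 0.887 and 0.862 in FPKM. The estimate rested on 5896 to 6529 counts per control sample and 5052 to 5432 per knockdown sample. The exact permutation test of the 6 values gave p = 0.1, the smallest that 3 against 3 samples allow (two-sided). Among the 799 genes that were lower past the test, 378 had a larger fall than MYC, and the median absolute log2 fold change of all genes past the test was 0.23. In bulk RNA, fewer cells that express a gene and less of its RNA per cell cannot be told apart.

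MAX, the partner that MYC, the MXD proteins, MNT and MGA share, did not pass the test. It measured 88.08, 89.98 and 85.68 FPKM in BR-shCON and 83.05, 82.33 and 87.69 FPKM in BR-shSPANXB1, and BR-shSPANXB1 replicate 3 lay within the BR-shCON range. Its log2 fold change was -0.07 ± 0.04 SE (95% interval -0.15 to 0.01, edgeR adjusted p = 0.28). MAX lies on the minus strand of chromosome 14 (GRCh38, chr14:65006174-65102695) and overlaps FNTB and CHURC1-FNTB on the opposite strand. No strand-marking step is described for the libraries, and without one reads from such overlaps cannot be told apart. The MAX counts were whole in all 6 samples.

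The MXD genes, which encode the classical repressive partners of MAX, showed small estimates with overlapping groups. MXD1 measured 7.49, 7.13 and 7.29 FPKM in BR-shCON and 7.14, 7.74 and 7.34 FPKM in BR-shSPANXB1 (log2 fold change 0.01, 95% interval -0.11 to 0.13, edgeR adjusted p = 0.94). MXI1 measured 10.18, 9.31 and 10.39 FPKM in BR-shCON and 11, 9.9 and 10.54 FPKM in BR-shSPANXB1 (0.05, -0.08 to 0.18, edgeR adjusted p = 0.66). In both genes the values of one group fell among those of the other. MXD4 measured 9.43, 8.76 and 7.45 FPKM in BR-shCON and 8.44, 8.08 and 7.55 FPKM in BR-shSPANXB1 (-0.10, -0.25 to 0.05, edgeR adjusted p = 0.40). BR-shCON replicate 3 was the lowest MXD4 sample of all 6. MXD3, which is best known from proliferating cells, measured 6.95, 6.38 and 6.24 FPKM in BR-shCON and 7.47, 6.53 and 5.74 FPKM in BR-shSPANXB1, whose samples held both the highest and the lowest value. The MXD3 estimate was the least precise of the network (0.01, -0.25 to 0.27, edgeR adjusted p = 0.96), since the gene had 85 to 105 counts per sample. MXD3 overlaps RAB24 on the same strand and PRELID1 on the opposite strand (chr5:177301461-177312757, minus strand), and its counts were fractional in all 6 samples, so its level is uncertain. MXD1 overlaps SNRNP27 on the same strand (chr2:69897688-69942945, plus strand), and its counts were whole in all 6 samples.

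MNT and MGA, the larger MAX-binding repressors, also had overlapping groups. MNT measured 5.85, 5.34 and 5.3 FPKM in BR-shCON and 5.76, 5.83 and 4.98 FPKM in BR-shSPANXB1 (log2 fold change -0.01, 95% interval -0.16 to 0.13, edgeR adjusted p = 0.92). MGA measured 10.04, 10.76 and 10.73 FPKM in BR-shCON and 10.05, 9.97 and 11.17 FPKM in BR-shSPANXB1 (-0.02, -0.11 to 0.07, edgeR adjusted p = 0.85). The BR-shSPANXB1 samples included both the lowest and the highest MGA value. For these repressors the intervals do not show equal levels, but they limit a difference to within 0.27 on the log2 scale for MXD3 and to a narrower range for the others.

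MLX and MLXIP form the MondoA branch, which carries nutrient signals. MLX measured 32.4, 30.02 and 31.24 FPKM in BR-shCON and 31.65, 33.05 and 31.48 FPKM in BR-shSPANXB1, with overlapping groups (log2 fold change 0.03, 95% interval -0.08 to 0.13, edgeR adjusted p = 0.79). MLX overlaps PSMC3IP on the opposite strand (chr17:42567068-42573239, plus strand), and its counts were fractional in all 6 samples. MLXIP measured 11.9, 11.76 and 11.87 FPKM in BR-shCON and 13.03, 13.29 and 12.32 FPKM in BR-shSPANXB1. Every BR-shSPANXB1 sample lay above every BR-shCON sample, and BR-shSPANXB1 replicate 3 was the nearest to them. The difference did not pass (0.13 ± 0.04 SE, 95% interval 0.03 to 0.22, edgeR adjusted p = 0.057). With samples paired by replicate number it did (0.12, 0.06 to 0.19, edgeR adjusted p = 0.0044), and the ratios of same-numbered samples were 1.09, 1.13 and 1.04. It also passed with upper quartile scaling (edgeR adjusted p = 0.045) and without BR-shSPANXB1 replicate 3 (edgeR adjusted p = 0.030).

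**Figure D2:**
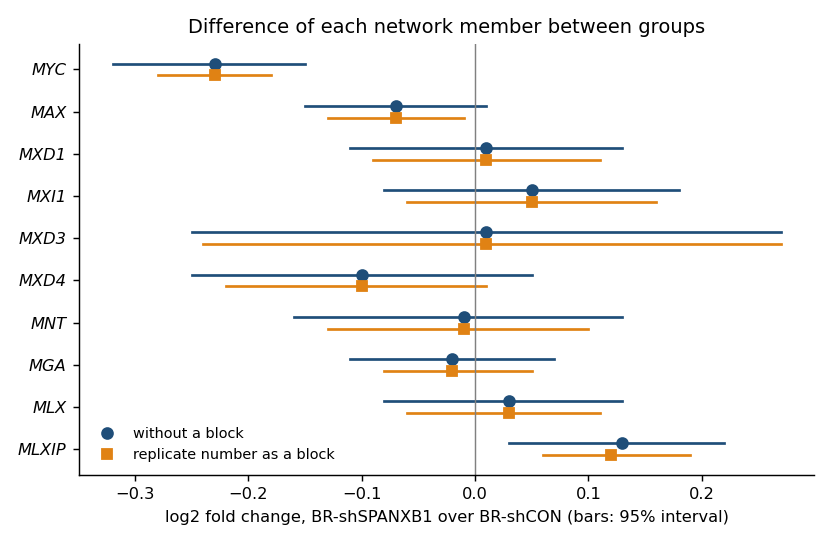
Log2 fold change of each network gene, BR-shSPANXB1 over BR-shCON, with its 95% interval, from edgeR without a block (blue circles) and with the replicate number as a block (orange squares). The MYC interval lies below 0 in both fits and the MLXIP interval above 0 in both, while the MAX interval leaves 0 only with the block (-0.13 to -0.01, edgeR adjusted p = 0.10).

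The FPKM ratio of MYC to its antagonists was lower in BR-shSPANXB1 cells, as a description of RNA with no test. The summed FPKM of MXD1, MXI1, MXD3, MXD4, MNT and MGA was 48.3 ± 1.37 (SD, n = 3) in BR-shCON and 48.4 ± 1.35 in BR-shSPANXB1. The ratio of MYC to this sum was 2.17, 2.10 and 2.05 in control replicates and 1.80, 1.85 and 1.77 in knockdown replicates. The ratio of MYC to MAX was 1.23, 1.11 and 1.14 in control replicates and 1.08, 1.08 and 0.956 in knockdown replicates. Neither ratio overlapped between groups, and MYC is the numerator of both. MYC made up 36.2% ± 0.850 of the summed FPKM of the network in BR-shCON and 33.0% ± 0.954 in BR-shSPANXB1. The ratio of MLXIP to MLX was 0.367, 0.392 and 0.380 in control replicates and 0.412, 0.402 and 0.391 in knockdown replicates, where the groups overlapped.

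**Figure D3:**
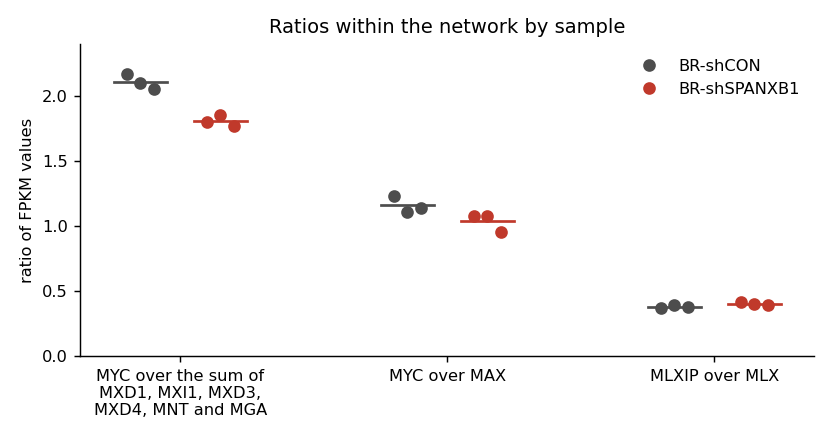
Ratios of FPKM values in each sample, with BR-shCON in grey, BR-shSPANXB1 in red and a bar at each group mean (n = 3 per group). MYC over its 6 antagonists lies between 2.05 and 2.17 in BR-shCON and between 1.77 and 1.85 in BR-shSPANXB1, and MLXIP over MLX overlaps between groups.

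Promoters were read to show where the E-box of the network lies. RefSeq promoters of 300 bases (GRCh38.p14, 250 bases before to 50 after the start site) matched 9 of the 10 members, all but MYC. The motif CACGTG, which reads the same on both strands, occurred in 3 of these 9, MXD4, MNT and MLX. It occurred in 7.43% of all 27305 promoters and in 10.4% of the 9483 promoters of tested genes. The windows around the motif are given in the direction of transcription, with the motif in capitals, for the members that hold it and for named target genes that hold it before the start site. In NME1, another named target, it lies after the start site, and that window is not shown.
MXD4 (chr4:2262330-2262359, minus strand): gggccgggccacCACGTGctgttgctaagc
MNT (chr17:2401236-2401265, minus strand): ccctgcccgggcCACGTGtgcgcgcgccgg
MLX (chr17:42567038-42567067, plus strand): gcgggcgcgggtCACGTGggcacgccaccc
NAT10 (chr11:34105602-34105628, plus strand): aatgcgcttgcgCACGTGctgtctacc
PPAT (chr4:56435780-56435809, minus strand): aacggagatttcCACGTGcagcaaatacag
CCNB1 (chr5:69166942-69166971, plus strand): gcagaggcagacCACGTGagagcctggcca
CDKN2C (chr1:50960513-50960542, plus strand): gattgtgcacctCACGTGgttagtcacaca
ARRDC4 (chr15:97960481-97960510, plus strand): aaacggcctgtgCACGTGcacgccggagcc
The first base of the motif lay 238 bases before the start site in MXD4, 193 in MNT and 50 in MLX. It lay 15 bases before the start site in NAT10, 182 in PPAT, 196 in CCNB1, 220 in CDKN2C and 210 in ARRDC4. These matches are descriptions of letters, and binding was not measured here. Among the target lists below, the motif occurred in 9 of 25 matched promoters of ribosome biogenesis genes (36.0%) and in 5 of 19 of nucleotide and polyamine synthesis genes (26.3%). It occurred in 4 of 18 promoters of cell cycle targets, 4 of 18 of metabolism, splicing and translation targets, 1 of 4 of MYC-repressed genes and 1 of 5 of MondoA and MLX targets. By direction, it was in 8.45% of 627 matched promoters of genes that rose and in 11.3% of 631 of genes that fell.

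Genes of ribosome biogenesis, a classical group of MYC targets, were lower where they changed. Of 30 tested, 6 fell and 0 rose, 27 estimates were below 0 and the median log2 fold change was -0.08, against a median of 0.00 with 780 genes that rose and 799 that fell among all 11439. With limma the split over all genes was 516 that rose and 350 that fell, and with upper quartile scaling 826 and 716. DDX21, an RNA helicase of ribosomal RNA processing, measured 125.3, 126.7 and 135.6 FPKM in BR-shCON and 113.5, 110.3 and 114.5 FPKM in BR-shSPANXB1, with no overlap (-0.21, edgeR adjusted p = 0.00046). NCL, the nucleolar protein nucleolin, measured 288.9, 312.1 and 315.2 FPKM in BR-shCON and 262.4, 273.6 and 278.2 FPKM in BR-shSPANXB1 (-0.18, edgeR adjusted p = 0.0024). All BR-shSPANXB1 values of NCL were below those of BR-shCON. BOP1, a factor for maturation of the large ribosomal subunit, fell by 0.18 on the log2 scale (edgeR adjusted p = 0.0037), and NAT10, an RNA acetyltransferase, fell by 0.18 (edgeR adjusted p = 0.0043). With the replicate block 13 of the 30 fell, and with limma 2 fell, without BOP1 and NAT10. Over all genes 25.7% passed with the block, in either direction.

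Nucleotide and polyamine synthesis genes were lower in most cases where they changed. Of 21 tested, 6 fell and 0 rose, with 17 estimates below 0 and a median of -0.09. That is 28.6% past the test, against 13.8% of all tested genes. ODC1, the rate-limiting enzyme of polyamine synthesis and a known MYC target, measured 281.5, 290.4 and 281.9 FPKM in BR-shCON and 233.5, 231.6 and 240.7 FPKM in BR-shSPANXB1, with no overlap (-0.29, edgeR adjusted p = 2.3e-06). PPAT, the first committed enzyme of purine synthesis, measured 16.26, 17.17 and 17.73 FPKM in BR-shCON and 13.55, 12.66 and 14.63 FPKM in BR-shSPANXB1, and its groups were also separate (-0.34, edgeR adjusted p = 0.00011). PAICS, a later enzyme of that pathway, fell by 0.20 (edgeR adjusted p = 0.00071), and NME1, a nucleoside diphosphate kinase, fell by 0.20 (edgeR adjusted p = 0.0022). With the replicate block 14 fell and 1 rose, and with limma 3 fell, without NME1. The block raised the calls over all genes too, to 25.7%.

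Cell cycle targets of MYC were higher where they changed. Of 21 tested, 5 rose and 0 fell, with a median of 0.03. Over all tested genes 6.82% rose and 6.98% fell. CCNE1, the cyclin E that drives entry into S phase, measured 7.83, 7.48 and 7.64 FPKM in BR-shCON and 10.75, 11.47 and 12.1 FPKM in BR-shSPANXB1, with no overlap (0.56, edgeR adjusted p = 2.2e-05). MCM6, a subunit of the replicative helicase, rose by 0.20 (edgeR adjusted p = 0.0022). CCNB1, the mitotic cyclin B1, rose by 0.15 (edgeR adjusted p = 0.015), and MCM3, another helicase subunit, by 0.12 (edgeR adjusted p = 0.044). With limma 2 of the 21 rose, without CCNB1 and MCM3. Leaving out 1 sample gave 2 genes without BR-shCON replicate 1, BR-shCON replicate 2 or BR-shSPANXB1 replicate 2, and 3 without BR-shCON replicate 3 or BR-shSPANXB1 replicate 1.

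Genes that MYC is known to repress moved in both directions. Of 7 tested, 2 rose and 3 fell, with a median of -0.00. That is 71.4% of a short list, against 13.8% of all tested genes. NDRG1, a stress-response gene, measured 54.95, 55.84 and 55.26 FPKM in BR-shCON and 44.55, 45.17 and 44.25 FPKM in BR-shSPANXB1, a narrow range in each group (-0.32, edgeR adjusted p = 1.0e-06). CDKN2C, an inhibitor of CDK4 and CDK6, measured 20.17, 22.07 and 24.49 FPKM in BR-shCON and 28.78, 29.66 and 29.52 FPKM in BR-shSPANXB1 (0.41, edgeR adjusted p = 2.9e-05). The CDKN2C groups did not overlap. DKK1, a secreted WNT antagonist, fell by 0.20 (edgeR adjusted p = 0.00084), and GADD45A, a DNA damage response gene, rose by 0.19 (edgeR adjusted p = 0.0093), a call lost without BR-shCON replicate 3.

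Metabolism, splicing and translation targets counted 1 gene that rose and 3 that fell of 23 tested, with a median of -0.01. That is 17.4% past the test, against 13.8% of all tested genes. SLC2A1, the glucose transporter GLUT1, rose by 0.23 (edgeR adjusted p = 0.00026). HK2, the hexokinase of the first step of glycolysis, fell by 0.14 (edgeR adjusted p = 0.015). GPI, which acts at the next step, fell by 0.13 (edgeR adjusted p = 0.017), and FASN, the fatty acid synthase, fell by 0.14 (edgeR adjusted p = 0.024). The FASN groups overlapped, with 57.98 FPKM in BR-shCON replicate 3 and 58.78 in BR-shSPANXB1 replicate 2. FASN passed in 8 of 15 alternatives. With the replicate block 4 rose and 7 fell, against 25.7% of all tested genes past the test in either direction. With limma 1 gene rose and 0 fell, at each pseudocount tried. Without BR-shSPANXB1 replicate 1, 1 gene of this list passed, and without BR-shSPANXB1 replicate 3, 2 did.

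Targets of the MondoA and MLX branch counted 3 genes that rose and 1 that fell of 6 tested, with a median of 0.13. That is 66.7% of a short list, against 13.8% of all tested genes. TXNIP, an arrestin-like inhibitor of glucose uptake, measured 79.18, 81.61 and 79.91 FPKM in BR-shCON and 94.12, 94.34 and 87.78 FPKM in BR-shSPANXB1 (0.18, edgeR adjusted p = 0.0019). ARRDC4, its paralogue, measured 2.81, 3.1 and 3.04 FPKM in BR-shCON and 4.32, 3.58 and 4.06 FPKM in BR-shSPANXB1 (0.41, edgeR adjusted p = 0.0030). Neither gene overlapped between groups. KLF10, a transcription factor, measured 22.99, 22.02 and 24.34 FPKM in BR-shCON and 27.88, 27.65 and 27.94 FPKM in BR-shSPANXB1 (0.25, edgeR adjusted p = 0.00063). The gene that fell was HK2, which stands in both this list and the metabolic one.

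**Figure D4:**
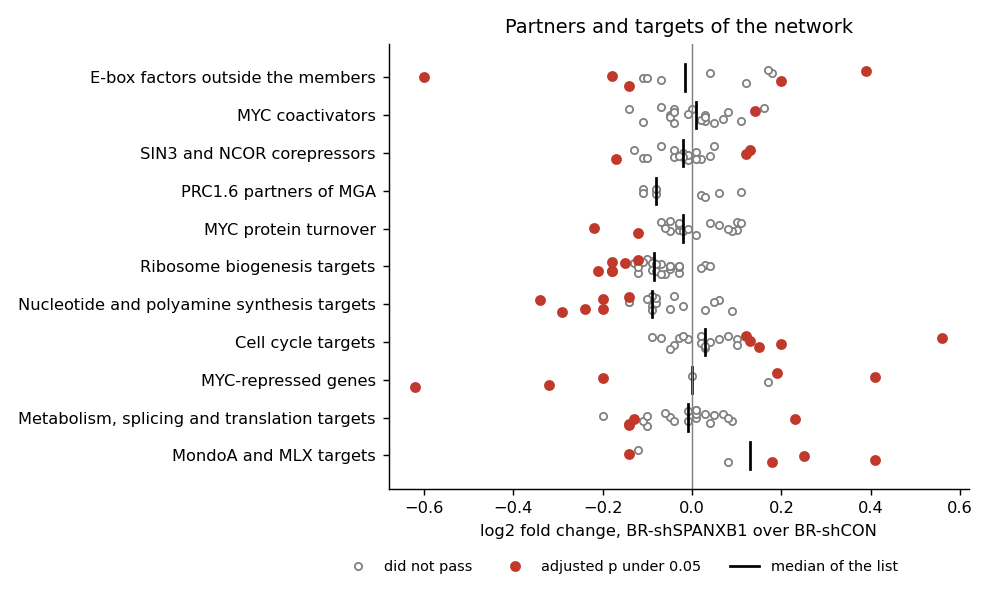
Log2 fold change, BR-shSPANXB1 over BR-shCON, of each tested gene in the 11 lists of partners and targets, with genes at an edgeR adjusted p under 0.05 in red, other genes as open circles and the list median as a black bar. Red points lie below 0 in the ribosome biogenesis and nucleotide lists, above 0 in the cell cycle list and on both sides in the MYC-repressed list.

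Partners and regulators of the network formed 5 further lists. Of 12 other E-box factors tested, 2 rose and 3 fell (median -0.02). That is 41.7% of a short list past the test, against 13.8% of all tested genes. BHLHE41, a circadian repressor, measured 1.91, 2.33 and 1.76 FPKM in BR-shCON and 1.31, 1.29 and 1.41 FPKM in BR-shSPANXB1 (-0.60, edgeR adjusted p = 0.0028). ARNTL, the clock factor BMAL1, measured 3.8, 3.79 and 3.71 FPKM in BR-shCON and 4.79, 5.36 and 4.81 FPKM in BR-shSPANXB1 (0.39, edgeR adjusted p = 0.0051). Both genes separated the groups, at low levels. NPAS2, a partner of BMAL1, fell by 0.18 (edgeR adjusted p = 0.012), and USF1, a widely expressed E-box activator, rose by 0.20 (edgeR adjusted p = 0.017). The NPAS2 groups overlapped, with 34.22 FPKM in BR-shCON replicate 3 and 34.92 in BR-shSPANXB1 replicate 1. DESeq2 did not call USF1, limma did not call NPAS2, and the list held 3 calls when BR-shCON replicate 1 was left out and 2 when BR-shSPANXB1 replicate 2 was. The calls over all genes in those fits were 1263 and 1041, against 1579 in the reported fit.

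Among 20 MYC coactivators 1 rose and 0 fell (median 0.01), namely BRD8, a subunit of the TIP60 acetyltransferase complex (0.14, edgeR adjusted p = 0.025), and with the replicate block 2 rose and 2 fell. No coactivator passed with DESeq2 or limma, or without BR-shCON replicate 2 or BR-shSPANXB1 replicate 2. Without BR-shCON replicate 1, BRD8 did not pass and the list held 0 genes that rose and 1 that fell. Of 19 SIN3 and NCOR corepressor genes 2 rose and 1 fell (median -0.02), which is 15.8% past the test, near the 13.8% of all tested genes. RBBP4, a histone-binding subunit, fell by 0.17 (edgeR adjusted p = 0.0057), while the scaffold SIN3A rose by 0.13 (edgeR adjusted p = 0.025) and NCOR1 by 0.12 (edgeR adjusted p = 0.048). DESeq2 called RBBP4 alone of the 19 and limma 0, and 1 gene, which fell, passed without BR-shCON replicate 1, BR-shSPANXB1 replicate 2 or BR-shSPANXB1 replicate 3. Of 9 partners of MGA in the Polycomb complex PRC1.6, 0 passed by edgeR and 2 had an unadjusted p under 0.05 (median -0.08). CBX3, a heterochromatin protein, had a log2 fold change of -0.11 (edgeR adjusted p = 0.062) and RYBP of 0.11 (edgeR adjusted p = 0.11). With the replicate block, which called 25.7% of all tested genes, 1 of these 9 rose and 2 fell, among them both named genes. With DESeq2 and limma 0 passed, and without BR-shCON replicate 2, CBX3 passed. Of 19 genes for MYC protein turnover 0 rose and 2 fell (median -0.02), which is 10.5% past the test, below the 13.8% of all tested genes. USP13, a deubiquitinase, measured 15.54, 14.91 and 15.63 FPKM in BR-shCON and 11.99, 13.01 and 13.49 FPKM in BR-shSPANXB1 (-0.22, edgeR adjusted p = 0.0020). SET, an inhibitor of the phosphatase PP2A, fell by 0.12 (edgeR adjusted p = 0.038). With the replicate block 1 gene of the turnover list rose and 3 fell, against 25.7% of all tested genes past the test in either direction. USP13 was the 1 call left with limma, and SET passed with 1 sample left out only without BR-shSPANXB1 replicate 3.

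The genes with the pattern most like MYC were named by the root mean square difference of centred, depth-scaled log2 counts over the 6 samples. FTL, the ferritin light chain, was nearest at 0.018, followed by TOR4A, a torsin family ATPase, at 0.024 and SAMD1, a chromatin protein, at 0.026. FTL measured 4413, 4370 and 4066 FPKM in BR-shCON and 3814, 3876 and 3635 FPKM in BR-shSPANXB1. In FTL, as in MYC, replicate 3 was the lowest sample of each group. The log2 fold change was -0.21 for FTL, -0.24 for TOR4A and -0.26 for SAMD1, and MYC itself stood at -0.23. The shared sample order and similar sizes follow from choosing these genes by closeness to MYC over the same samples.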

How the data were processed

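Poly(A) RNA of 3 BR-shCON and 3 BR-shSPANXB1 samples was sequenced in paired reads on a BGISEQ platform. The authors deposited, for each sample, estimated counts that are not normalized, FPKM values scaled by transcript length and mapped fragments, and TPM values, which were not used. Of the estimated counts, 14.5% were not whole. GRCh38.p12, Bowtie2 2.2.5 and HISAT2 2.0.4 are listed in the submitters' processing notes, without roles. The counting program was not given in the sources used here.

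Counts were rounded and tested with edgeR 4.0.16 under R 4.3.3 (robust quasi-likelihood test, TMM, Benjamini-Hochberg adjustment). The 11439 genes whose mean FPKM reached 1 were tested. The biological coefficient of variation was 0.0339. Between samples with the same replicate number, deviations from the group mean correlated at 0.101, 0.16 and 0.155, each over the minimum of 0.1. Other numbers reached at most -0.03, but centring each group on its mean pushes those values below 0 when the same-number values are positive. That contrast is therefore no independent support. The pairing was accepted on these low correlations alone, and a fit with the replicate block was compared. Other alternatives were DESeq2 1.42.0 and limma 3.58.1 on log2(FPKM + 0.1), other scalings, filters and pseudocounts, and leaving out each sample. The scripts were tested on simulated data. Gene positions came from GENCODE release 29 on GRCh38 and promoters from RefSeq. Figures used matplotlib 3.10.9.

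Members and lists were chosen with earlier results of these data known, and 1 leukocyte marker of the planned list is not reported here. The text names all members, SPANXB1, up to 4 genes per list with the smallest adjusted p past the test (or 2 where none passed), and the 3 genes most like the member with the smallest adjusted p.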

Additional observations from a re-analysis of the deposited data

How the results depend on the processing

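No named gene past the test changed direction under an alternative, but the split of calls did turn in some lists. The coactivators went from 1 higher and 0 lower to 0 and 1 without BR-shCON replicate 1. MYC passed the test in 15 of 15 alternatives (log2 fold change -0.27 to -0.19, adjusted p 9.2e-12 to 0.025 by edgeR, DESeq2 or limma). The range with 1 sample left out was -0.27 to -0.19 for MYC and 0.10 to 0.16 for MLXIP, which passed with the replicate block (0.12), with upper quartile scaling (0.13) and without BR-shSPANXB1 replicate 3. The members past the test numbered 2 under these 3 alternatives and 1 to 2 with 1 sample left out, and 0 met the criteria of the study with any sample left out.

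Samples paired by replicate number gave 2935 genes past the test (25.7% of those tested), against 1579 unpaired (13.8%). The block gave 4 MYC coactivators, 3 partners of MGA, 4 turnover genes, 13 ribosome biogenesis, 15 nucleotide and polyamine and 11 metabolism genes past the test. It changed no other member's call. DESeq2 gave 1020 genes, and limma 866, 867 and 873 at pseudocounts of 0.1, 0.01 and 1 (516, 517 and 522 of them higher). E-box factors numbered 3 with DESeq2, limma or a mean FPKM of at least 5, coactivators 0 with DESeq2 or limma and 2 with no filter, and corepressors 1 with DESeq2 and 0 with limma. With limma at each pseudocount, turnover genes numbered 1, ribosome biogenesis 2, nucleotide and polyamine 3, cell cycle 2 and metabolism 1.

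With 1 sample left out, 1041 (without BR-shSPANXB1 replicate 2) to 1466 genes passed. The lists then counted 2 to 5 E-box factors, 0 to 1 coactivators, 1 to 3 corepressors, 0 to 1 partners of MGA, 1 to 2 turnover genes, 5 to 7 ribosome biogenesis, 4 to 7 nucleotide and polyamine, 2 to 4 cell cycle, 4 to 5 MYC-repressed, 1 to 6 metabolism and 3 to 4 MondoA genes. DESeq2 lost 4 of the 39 named genes outside the members (BRD8, NCOR1, SIN3A and USF1) and limma 14. The cause of these changes was not tested. At 85 to 105 counts per sample, depth limits the precision of MXD3.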

Other observations

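Some relatives and targets of the network were low in these cells, and MYCN was not among the genes measured. MYCL, a paralogue of MYC, had 3 to 9 counts per sample (mean FPKM 0.103 in the control and 0.123 in the knockdown), and MLXIPL, the carbohydrate-response factor ChREBP, had 0 to 2 counts (0.0200 and 0.0300). Both fell below the level filter and were not tested. TFEB and TFEC, other E-box factors, had 2 to 9 and 15 to 28 counts per sample and were not tested either. TERT, the telomerase catalytic subunit and a known MYC target, had 53 to 73 counts (1.04 and 0.937 FPKM) and also fell below the filter.

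One further gene was chosen after its values were seen. CDKN1C, which encodes the cell cycle inhibitor p57 and stands in the MYC-repressed list, fell by 0.62 on the log2 scale (mean FPKM 3.82 in the control and 2.46 in the knockdown, edgeR adjusted p = 0.012), and its absolute estimate was above that of every other gene in the 11 lists in the reported fit. The gene was not called with DESeq2 or limma, nor without BR-shCON replicate 2 or BR-shSPANXB1 replicate 2, and a mean FPKM of at least 5 left it untested.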
